A study of Drosophila melanogaster with 3 samples.

Results

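The gene ush (u-shaped, FBgn0003963) and the gene cbt (cabut, FBgn0043364), which lies inside it, occupy the left arm of Drosophila melanogaster chromosome 2 in a stretch dense with binding sites of the ETS factor Ets65A. The stretch described here is the union of both gene bodies and arm 2L from 400001 to 500000 in the dm6 build, 140.6 kb in all. It held 16 of the 2780 peaks on the list that the authors thresholded by reproducibility (the irreproducible discovery rate, IDR). It also held 63 of the 28940 peaks called on all replicates together. Of the 16 IDR peaks, 15 lay in the 100 kb window itself, and the last lay further along ush. The window was selected on measured values, since no other window held more IDR peaks and 1 held as many, so its peak count and the strength of its peaks are descriptions and were not tested. Its members were also known from earlier results of the same lists.

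The samples were whole embryos of mixed sex, 0 to 24 h old, of the transgenic line ets3-GFP, which stably expresses Ets65A with GFP at its C-terminus. Chromatin was sonicated to fragments of 200 to 800 bp and precipitated through the GFP tag, although the antibody field of the labels names Ets65A itself. All samples formed 1 group of 3 biological replicates with 1 technical replicate each, so there was no comparison of conditions, and no control library was analysed here. A whole embryo mixes all tissues and stages of that day, so the cells in which a site was occupied cannot be told apart.

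Ets65A belongs to the ETS family of transcription factors, whose DNA-binding domain contacts the sequence GGAA. The product of ush is a zinc finger protein of the FOG (friend of GATA) type, which does not act alone but binds GATA factors such as Pannier and Serpent and changes their activity in dorsal ectoderm, sensory bristle, heart and blood cell development. The product of cbt is a zinc finger factor related to the mammalian KLF and TIEG proteins. It is known from dorsal closure of the embryo, where it acts downstream of the JNK pathway, and from the response to dietary sugar and the circadian clock. A peak in an intron can belong to either gene or to neither, and these lists do not say on which gene a site acts.

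Strength is given as the signal value that the authors' peak caller wrote for each peak, a score whose scale is not stated in the sources used here. Signals are compared only within 1 list, with rank 1 the strongest. The IDR list was exactly the 2780 strongest pooled peaks. The lists called on single replicates held 30000 peaks each. A place on the IDR list did not require a peak in each of them: of the 16 IDR peaks here, 15 overlapped a peak in replicate 1. The 16 IDR peaks are called P1 to P16 from left to right. P15, the weakest of them, had a signal of 80.8, while the strongest peak of the stretch that did not pass, in an intron of ush with its summit at 516190, had 68.1. Over the whole series the weakest IDR peak had 71.82 and the strongest peak that missed the list 71.80.

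The sequences below are the genomic DNA of 201 bases around 8 of the 16 summits, from the RefSeq dm6 assembly, plus strand, written 5′ to 3′. Capitals mark the ETS core GGAA on either strand (TTCC on the strand shown). P8, P9 and P10 are shown as the 3 strongest peaks. P1 and P3 sit between divergent promoters. P7 and P13 are the peaks without a GGAA. P12 and P13 had the widest spread of ranks among the ush peaks that overlapped a peak in all 3 replicates. P3 is cut at the exon of CG11885 and is 148 bases long.
P1 (chr2L:414818-415018): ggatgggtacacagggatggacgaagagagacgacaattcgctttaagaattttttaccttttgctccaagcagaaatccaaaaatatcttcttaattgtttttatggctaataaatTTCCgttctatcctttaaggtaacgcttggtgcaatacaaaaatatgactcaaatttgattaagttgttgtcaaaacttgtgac
P3 (chr2L:421451-421598): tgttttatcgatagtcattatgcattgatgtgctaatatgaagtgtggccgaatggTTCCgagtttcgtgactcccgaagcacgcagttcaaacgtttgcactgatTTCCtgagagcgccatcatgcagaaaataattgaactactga
P7 (chr2L:470662-470862): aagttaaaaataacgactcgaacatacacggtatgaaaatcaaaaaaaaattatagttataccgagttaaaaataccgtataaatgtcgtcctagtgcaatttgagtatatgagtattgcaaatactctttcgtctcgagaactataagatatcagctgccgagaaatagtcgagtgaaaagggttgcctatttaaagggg
P8 (chr2L:472362-472562): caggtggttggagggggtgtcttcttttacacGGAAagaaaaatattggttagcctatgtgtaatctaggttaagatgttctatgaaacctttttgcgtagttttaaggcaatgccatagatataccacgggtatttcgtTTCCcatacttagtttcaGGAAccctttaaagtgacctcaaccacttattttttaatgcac
P9 (chr2L:479995-480195): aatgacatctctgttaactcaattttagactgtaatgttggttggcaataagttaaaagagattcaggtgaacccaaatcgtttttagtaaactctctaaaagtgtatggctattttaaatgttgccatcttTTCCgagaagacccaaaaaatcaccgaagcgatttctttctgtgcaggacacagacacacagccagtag
P10 (chr2L:480979-481179): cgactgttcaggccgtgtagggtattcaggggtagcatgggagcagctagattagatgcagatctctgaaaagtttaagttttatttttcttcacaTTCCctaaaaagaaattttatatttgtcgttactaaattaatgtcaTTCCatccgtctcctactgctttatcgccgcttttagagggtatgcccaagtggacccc
P12 (chr2L:485758-485958): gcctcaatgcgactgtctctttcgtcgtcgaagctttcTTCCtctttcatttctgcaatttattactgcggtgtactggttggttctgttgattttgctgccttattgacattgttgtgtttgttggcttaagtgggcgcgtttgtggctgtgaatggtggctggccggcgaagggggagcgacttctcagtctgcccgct
P13 (chr2L:488346-488546): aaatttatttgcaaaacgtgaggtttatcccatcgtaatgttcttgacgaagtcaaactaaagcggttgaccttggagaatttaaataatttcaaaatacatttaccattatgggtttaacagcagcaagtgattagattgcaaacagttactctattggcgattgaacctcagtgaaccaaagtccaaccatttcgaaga

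The strongest site of the stretch, P10, lay in the first intron of ush at chr2L:480889-481278, with its summit at 481079. The summit is 4.86 kb downstream of the first start site of ush and 1391 bp upstream of the only start site of cbt, which is transcribed in the opposite direction. P10 had a pooled signal of 1293 and was the third strongest of the 2780 IDR peaks of the genome. Its signal was 385, 522 and 391 in replicates 1, 2 and 3, where it ranked 3, 2 and 3 in the replicates' own lists, a mean rank of 2.67 ± 0.577 (SD, n = 3). All 3 replicates placed it at the very top of their lists, with summits 13, 4 and 3 bp from the pooled summit. A GGAA began 4 bp to the left of the P10 summit, and a second one 42 bp to its right, where the printed sequence carries them in capitals.

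P9, the second strongest site of the stretch, was 0.984 kb from P10 on the side of cbt. Its summit at 480095 lay 407 bp upstream of the cbt start site, which makes P9 a promoter peak of cbt although it lies within the first intron of ush. P9 had a pooled signal of 362, rank 100 of the IDR list, and 116, 139 and 109 in replicates 1, 2 and 3 at ranks 87, 103 and 136. The 3 replicates gave P9 nearly the same place. The ratio of P10 to P9 was 3.31, 3.76 and 3.58 in replicates 1, 2 and 3, a mean of 3.55 ± 0.227 (SD, n = 3). P9 spanned 227 bp, where most peaks of the list spanned 390 bp.

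**Figure D1:**
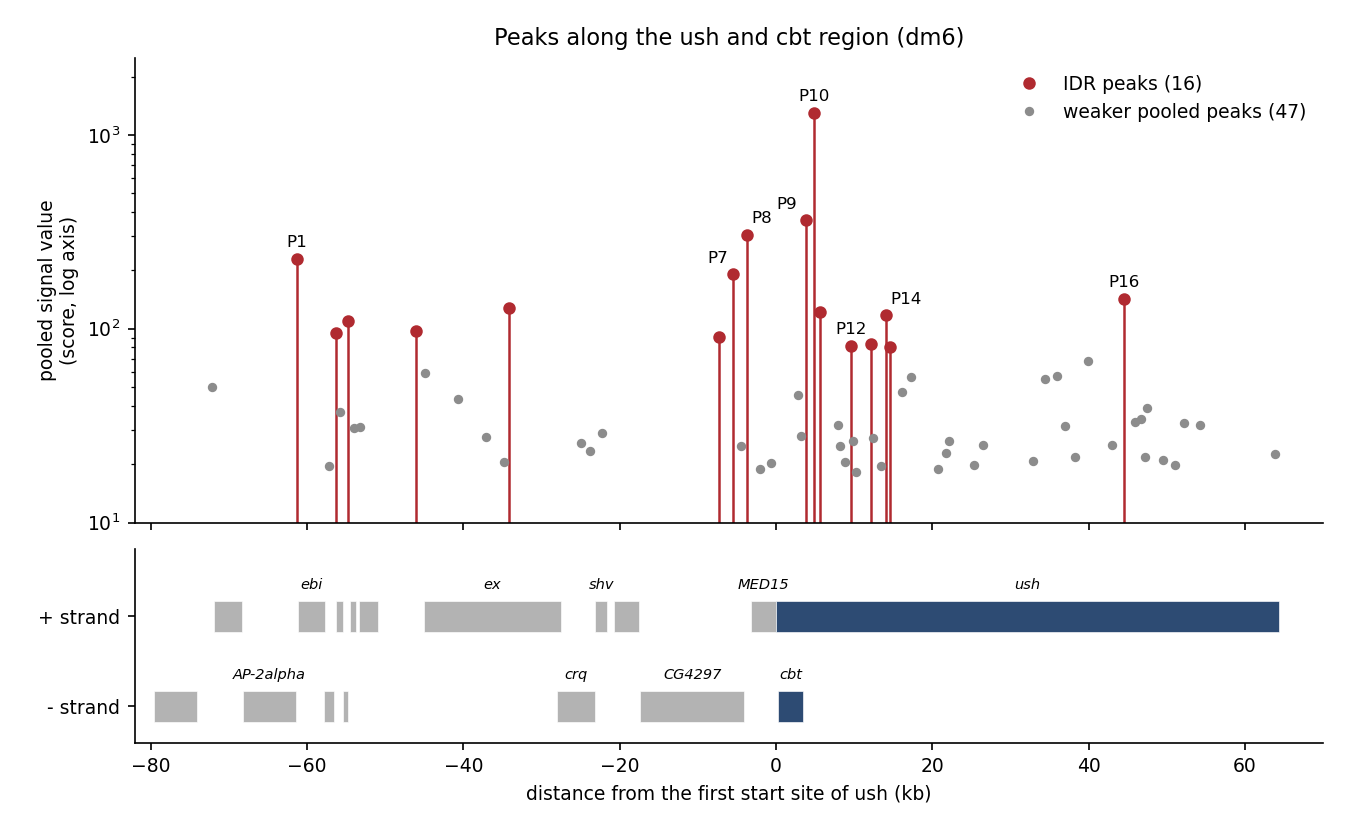
The upper panel plots each pooled peak of the stretch by its distance from the first start site of ush (kb) and its pooled signal (score, log axis), with the 16 IDR peaks in red and the 47 weaker peaks in grey, and the lower panel shows protein-coding genes by strand. P10 at 1293 stands above P9 at 362 and P8 at 304, and 7 of the 8 IDR peaks within ush lie before its second start site.

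The ush gene spans 64.3 kb (476220 to 540560, plus strand) with 4 annotated start sites, at 476220, 490835, 523466 and 523736. The cbt gene spans 3.24 kb (476446 to 479688, minus strand) and lies within the 13.2 kb first intron of the longest ush transcripts. The IDR peaks were spread unevenly over these parts. Between the first start site of ush and the start site of cbt, 3.47 kb that hold all of cbt, there were 0 IDR peaks and 2 weaker ones. The next 11.1 kb, up to the second start site of ush, held 7 IDR peaks (P9 to P15) and 7 weaker ones. From there to the third start site, 32.6 kb held 1 IDR peak (P16) and 16 weaker ones, and the last 17.1 kb held 0 IDR peaks and 7 weaker ones.

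In all, 8 IDR summits lay in the ush body and 0 in the cbt body. The share of protein-coding genes with any IDR summit in the body was 7.90% of 13945. Since the stretch was chosen by its peaks, nothing is read from that comparison. Both weaker peaks in cbt lay near its 5′ end. One, in the 5′ UTR 658 bp from the start site, had a pooled signal of 45.5, with 23.2 in replicate 2 and 28.1 in replicate 3 and no overlapping peak in replicate 1. The other lay 242 bp from the start site and had a pooled signal of 27.8.

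The first start site of ush, shared by its longest transcripts, had no IDR peak nearby. The nearest was P8, 3758 bp to the left at the promoter of CG4297, and the nearest pooled peak, 660 bp away, had a signal of 20.2. The second start site had P15 at 56 bp and P14 at 556 bp, both upstream of it in the 5′ untranslated exon that the longer transcripts splice in. At the start sites at 523466 and 523736, weak pooled peaks lay 4 and 28 bp away with signals of 21.7 and 38.9. Both were below 71.82, the weakest signal of the IDR list. Among the 4 start sites of ush, the second was the only one with an IDR summit within 500 bp.

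P11 lay 0.825 kb from P10 on the other side from P9, with a pooled signal of 123 and 23.8, 59.5 and 32.7 in replicates 1, 2 and 3 at ranks 1995, 774 and 2028. P12 lay 3.95 kb further, with a pooled signal of 81.4. It had 19.9, 24.8 and 64.1 in replicates 1, 2 and 3, at ranks 2784, 3604 and 494. In replicates 1 and 2 the overlapping peaks had their summits 295 and 135 bp to the right of the pooled one, while that of replicate 3 was 2 bp away, so only replicate 3 had its summit at P12 itself. P13, 2.59 kb beyond P12, had a pooled signal of 83.1 and ranked 13679, 2936 and 1224 in replicates 1, 2 and 3. Its signal was 11.1, 28.1 and 41.8 in that order.

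P14 and P15 stood 500 bp apart at the second start site of ush, the closest pair of the stretch. P14 was even across replicates, with signals of 32.7, 43.7 and 36.9 at ranks 1178, 1427 and 1612, and a pooled signal of 117. P15 was not. It had no overlapping peak in replicate 1, 21.2 at rank 4615 in replicate 2 and 51.3 at rank 816 in replicate 3. P15 was thus the one IDR peak of the stretch missing from a replicate's whole list.

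**Figure D2:**
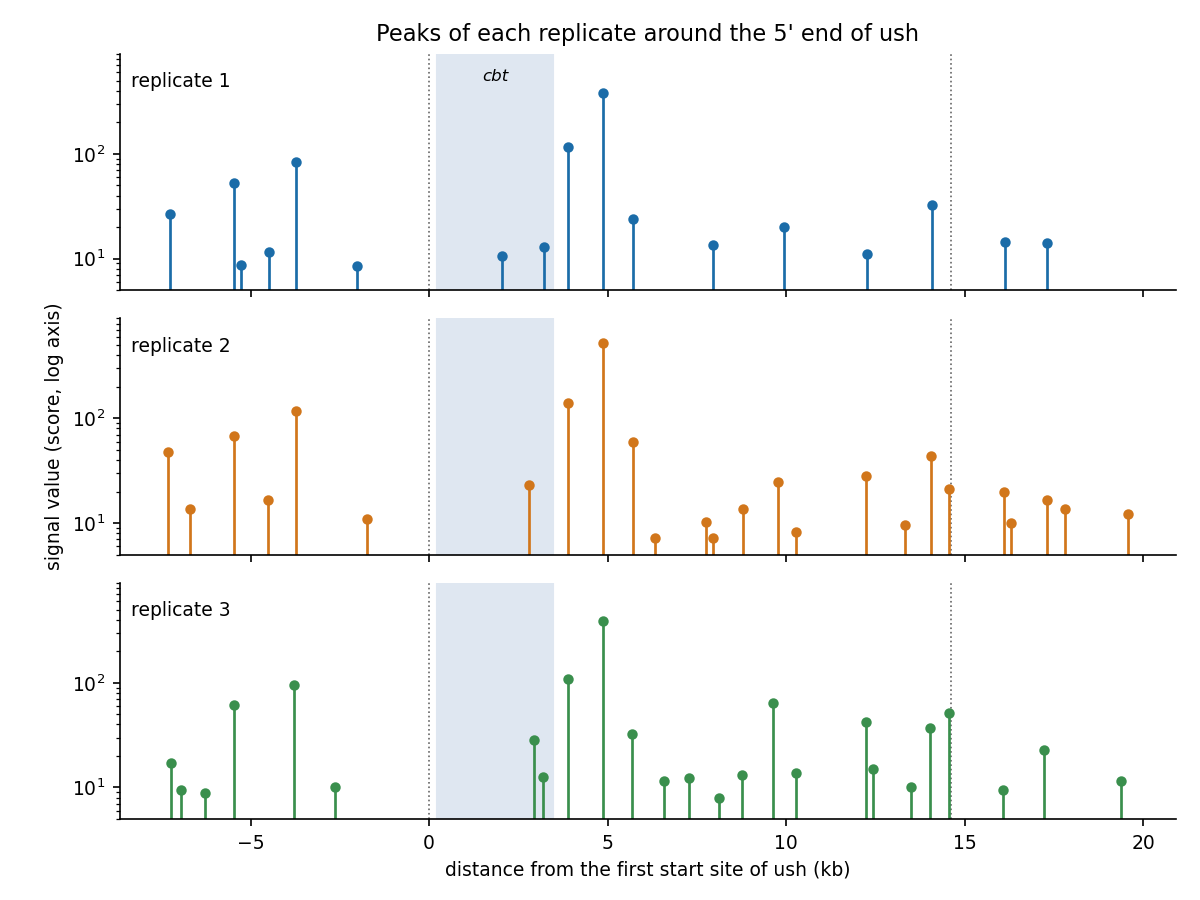
Each panel plots 1 replicate's own peaks by distance from the first start site of ush (kb) and signal (score, log axis), with cbt shaded and the first and second start sites of ush dotted. The peaks P8, P9 and P10 have the same order and place in all 3 panels, while P12 and P15 rank 494 and 816 in replicate 3, and P15 is not called in replicate 1.

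P16, outside the window, lay at 520789 in a large intron of ush, 2677 bp upstream of the third start site. It had a pooled signal of 142, and 21.3, 71.3 and 47.4 in replicates 1, 2 and 3 at ranks 2410, 530 and 971. Replicate 1 gave it the lowest place, though still among its strongest 2780. To its left, 5 weaker peaks lay between 510597 and 516190. Those at 510597, 512237 and 516190 had pooled signals of 55.2, 56.8 and 68.1, with -log10 q of 2.96, 3.20 and 3.30. The other 2, at 513262 and 514499, had 31.3 and 21.7, with -log10 q of 0.571 and 0.111. The first 3 are among the 6 weaker peaks of the stretch with a -log10 q of at least 2. The others lay at 493545 in an intron of ush, with 56.5, and at the start sites of ex and Polr1B.

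The IDR peaks next to ush on its left were at CG4297, a gene on the minus strand known only by its number, with 2 annotated start sites. P8, with its summit at 472462, lay 262 bp upstream of the outer start site of CG4297 and 551 bp from that of MED15, a subunit of the Mediator complex that links factors to RNA polymerase II. P8 had a pooled signal of 304, rank 149 of the IDR list, and 83.3, 117 and 96.2 in replicates 1, 2 and 3 at ranks 171, 167 and 183. It was 193 bp wide. Intronic sequence of CG4297 held P7 and P6, 793 and 2609 bp downstream of the other, inner start site. P7 had a pooled signal of 191 and 53.1, 67.7 and 61.4 in the replicates in order, at ranks 465, 597 and 556. P6 had a pooled signal of 91.0 and was uneven, at ranks 1626, 1238 and 6730.

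P1 lay between the divergent genes AP-2alpha, which encodes a clathrin adaptor subunit, and ebi, a WD40 protein that acts with the EGF receptor pathway in the fly eye. Its summit at 414918 was 141 bp from the first and 149 bp from the second start site. P1 had a pooled signal of 229, rank 298 of the IDR list, with 98.0 and 98.4 in replicates 1 and 2 at ranks 119 and 256. In replicate 3 it had 28.0, at rank 2714. The highest of its rank numbers was 22.8 times the lowest, the largest such ratio among the 15 IDR peaks of the stretch present in all 3 replicates.

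P2 lay 28 bp upstream of RpLP1, a protein of the large ribosomal subunit's stalk, and 272 bp from CG13690. P3 lay 48 bp from CG11885 and 273 bp from CG13692. P2 had 29.7, 38.4 and 32.8 in replicates 1, 2 and 3, and P3 had 30.1, 34.5 and 41.4. The pooled signals of P2 and P3 were 95.4 and 109, both under the median of all IDR peaks. In the replicates in order, P2 ranked 1378, 1786 and 2016 and P3 ranked 1343, 2131 and 1257.

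The gene ex (expanded), a FERM domain protein upstream of the Hippo pathway, had P4 997 bp upstream of its start site and P5 in an intron. P4 had a pooled signal of 97.1 and was the only intergenic IDR peak of the stretch, at ranks 993, 2006 and 3158 in replicates 1, 2 and 3. P5 had a pooled signal of 127, with 39.3, 44.2 and 36.1 in the replicates at ranks 872, 1399 and 1686. The start site of ex had a weaker peak 37 bp away with a pooled signal of 59.2 and a -log10 q of 3.39, the highest -log10 q of all weaker peaks of the stretch. It had 27.4 and 23.6 in replicates 2 and 3 and no overlapping peak in replicate 1.

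Of the 17 protein-coding genes with a start site in the window, 9 had an IDR summit within 500 bp of one, against 15.8% of all 13945 protein-coding genes. The window was chosen by its IDR peaks, so nothing is read from that comparison. The 9 genes were AP-2alpha, ebi, CG13690, RpLP1, CG11885, CG13692, CG4297, ush and cbt. P1, P2 and P3 each lay within 500 bp of the start sites of a pair of genes. The 8 without one were CG4213, Polr1B (a subunit of RNA polymerase I), BBS8 (a cilium protein), ex, crq (croquemort, a CD36-type receptor for dying cells in macrophages), shv, CG4133 and MED15. Several of these had a weaker pooled peak, with a signal of 49.7 at 273 bp from Polr1B, 31.2 at 161 bp from BBS8 and 25.7 at 74 bp from crq. Only ex, CG4297 and ush had an IDR summit in the body, with 1, 2 and 8.

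By position, 6 of the 16 IDR peaks (37.5%) were at promoters, meaning within 500 bp of a protein-coding start site, against 59.1% of all IDR peaks. In introns lay 8 (50%), against 26.7% of all IDR peaks. P14 was in a 5′ UTR and P4 was intergenic. All 8 intronic peaks belonged to ex, CG4297 or ush, and 5 of them to ush. The position of a peak played no part in the choice of the window, but P16 lies outside it and was included because it is in ush. The peaks of 1 gene also share that gene's long introns, and the difference was not tested.

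The 47 weaker pooled peaks had signals of 18.1 to 68.1, with a median of 26.3, against a median of 24.8 over all weaker peaks of the series. In ush outside cbt there were 30, the ex gene held 4, and crq, MED15 and cbt held 2 each. CG13690, RpLP1, CG13692, BBS8, shv and CG4297 held 1 each, and 1 lay between genes before Polr1B. Most were in introns (26) or at promoters (12), and 4 were in coding exons. By replicate, 13 of the 47 overlapped a peak in all 3 lists, 24 in 2, 7 in 1 and 3 in none. An overlap of 1 bp was enough, so the same replicate peak could count for several pooled peaks. The replicate 1 peak of 19.9 counted for P12 and for the weaker peaks at 486067 and 486470. At 488645 the peaks counted in replicates 1 and 2, of 11.1 and 28.1, were those counted for P13. Replicate 3 also had a separate peak of 15.1 there. The counts may thus overstate the support of the weaker peaks themselves. Beside P12 and P13, 2 of the 47 lay within 250 bp of an IDR summit, against 1.79% of the weaker peaks of the series. In the stretch 25.4% of pooled peaks were IDR peaks, and in the window 34.1%, against 9.61% over the series, a share that follows from how the window was chosen.

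**Figure D3:**
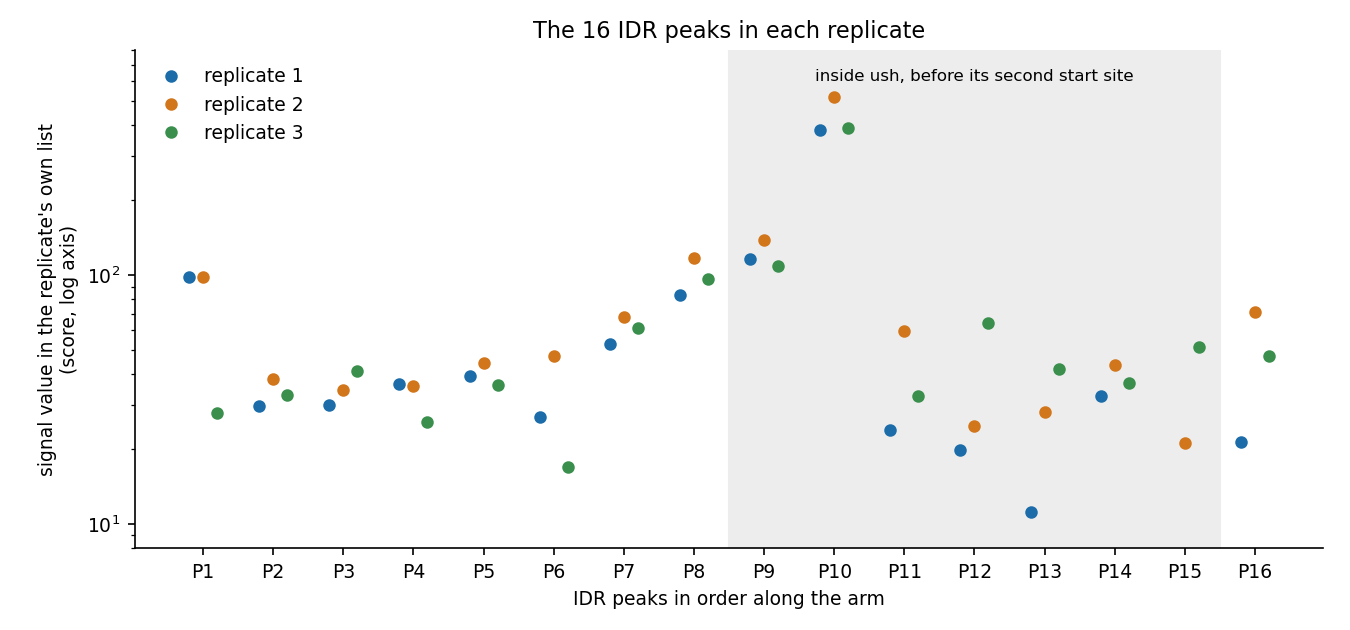
Points give the signal of each of the 16 IDR peaks, in order along the arm, in replicates 1, 2 and 3 (score in the replicate's own list, log axis). The 3 points of a peak come from separate lists, so places within a list are compared. P10 is the highest point of each replicate, and P1 ranks 119, 256 and 2714 in replicates 1, 2 and 3. The peaks overlapping P12 rank 2784, 3604 and 494, with summits 295, 135 and 2 bp from that of P12.

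Across replicates, 11 of the 16 IDR peaks were among the strongest 2780 of all 3, against 59.4% of the IDR list. In replicates 1, 2 and 3 singly, 13, 13 and 14 were, against 77.5%, 86.9% and 81.4% of the list. The 5 that fell short somewhere were P4 and P6 in replicate 3, and P12, P13 and P15 in replicates 1 and 2. Some misses were narrow, such as P13 at rank 2936 in replicate 2. The replicate 1 peak that overlapped P12 ranked 2784, but its summit lay 295 bp away, so that rank may not be one of P12 itself. The summits of overlapping replicate peaks lay a median of 13 bp from the pooled summit, and 41 of 47 within 50 bp. The highest rank divided by the lowest over replicates had a median of 1.93 over 15 peaks of the stretch, against 2.32 over 2705 of all IDR peaks. It passed 5 at 4 of the 15, namely P1, P6, P12 and P13, against 14.9% of the list. At P12 the ratio takes overlapping peaks of replicates 1 and 2 whose summits lay 295 and 135 bp away.

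The order of the peaks by signal was more alike between replicates 1 and 2 than between either and replicate 3. Spearman's rho over the IDR peaks of the stretch was 0.718 between replicates 1 and 2 (15 peaks), 0.289 between 1 and 3 (15 peaks) and 0.276 between 2 and 3 (16 peaks). Over the whole list the same values were 0.694 (2711 peaks), 0.572 (2707 peaks) and 0.665 (2772 peaks). The peaks of 1 library share its depth and its background, so these values are descriptions only. In replicate 3, 11 of the strongest 2780 peaks had their summits in the ush body and no protein-coding gene had more, whereas replicates 1 and 2 had 5 and 6 there, with 9 and 7 genes above ush. Base composition differed among the uneven peaks: P12 and P15 had 50.2% and 51.2% G and C in the 201 bases around the summit. P1, P6 and P13, also uneven, had 34.3%, 35.3% and 35.3%. The medians were 39.6% over the stretch and 37.3% over the list. Only 4.10% of all IDR peaks had as much G and C as P12. The part of base composition in the replicate differences was not tested.

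The IDR peaks of the stretch had a median signal of 120, against 110 over the list, and 9 of the 16 were above the list median. They were closely spaced, as the choice of the window implies. Neighbouring IDR summits lay a median of 2588 bp apart, and 7 of 15 gaps were under 2000 bp, against a median of 17936 bp and 12.8% over the series. P6 to P15, 10 peaks, fell within 21.8 kb. Another place on arm 2L, starting at 2748723, also had 10 IDR summits within 25 kb, so this density occurred elsewhere. On either side the list thinned: the next IDR peak to the left of P1 was 109 kb away and the next to the right of P16 53.7 kb away. The windows before and after held 1 and 2 IDR peaks, and P16 of the stretch is among the latter.

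**Figure D4:**
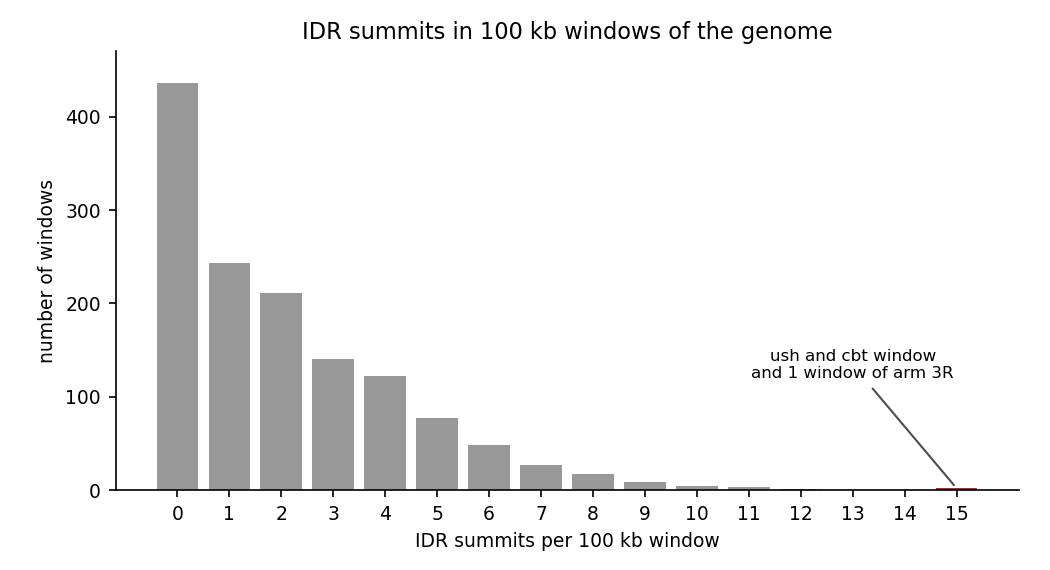
Bars count the 100 kb windows of the genome (1342 in all) by the number of IDR summits they hold, and the red bar marks the windows with 15. Most windows hold few, with a median of 1 and 436 windows at 0.

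Over 1342 windows of 100 kb the mean was 2.07 ± 2.25 IDR peaks (SD over windows), and 11 windows held 10 or more. The ush and cbt window shared the highest count, 15, with a window on arm 3R from 9500001 to 9600000. The make-up of the pair differed: 6 promoter and 7 intronic peaks among 17 protein-coding genes in the ush and cbt window, against 13 promoter and 0 intronic peaks among 28 genes on 3R. The median signal was 117 in the ush and cbt window and 137 on 3R, while the highest was 1293, against 263 on 3R at CG9399. The next window, 2L from 800001, held 12, and 3 windows held 11, of which 2L from 1600001 (with chinmo) had the highest summed signal. By summed signal the ush and cbt window was first with 3384, ahead of 2428. P10 alone gave 38.2% of that sum, and 39.2%, 41.8% and 37.2% of the summed strongest peaks in replicates 1, 2 and 3. Without P10 the sum was 2091 and the window ranked 6.

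Among single genes, those with the most IDR summits in the body other than ush were CG1677 with 10, the nuclear receptor gene Hr4, the forkhead factor gene CHES-1-like and the cell adhesion gene kirre with 9 each, and the kinase gene Raf with 8. These 5 are on the X chromosome. CG14434, also on X, and the autosomal gene shn on 2R followed with 7 IDR summits each, in 15.3 kb and 58.3 kb. Gene lengths differed widely: kirre spans 394 kb and CHES-1-like 27.0 kb, which gives 2.28 and 33.3 IDR summits per 100 kb, against 12.4 in ush. By the summed signal of these summits ush was first of all protein-coding genes with 2282, ahead of Raf with 1497. P10 gave 56.7% of the ush sum, and without it ush had 989 and would rank 15. The first place of ush by summed signal thus rested on P10.

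An ETS core GGAA was present within 100 bp of the summit in 14 of the 16 peaks (87.5%), against 75.9% of all IDR peaks. There were 24 places in the 16 windows, 1.5 per peak, against 1.48 over the list. The nearest GGAA lay a median of 32 bp from the summit, against 31 bp over the list. In count and distance of this core the stretch was close to the list as a whole. How often these 4 letters occur in DNA outside the peaks was not counted, so a match alone does not mark a binding site. P7 and P13, with pooled signals of 191 and 83.1, had none within 100 bp, and both had one within 200 bp. Longer ETS matches were few: CCGGAA was at 1 peak (P2) against 5.61% of the list, CAGGAA at 4 (P2, P3, P6 and P8, 25%) against 6.08%, and CCGGAAGT at 0 against 0.719%. Each of these contains GGAA, so the counts overlap.

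Other motifs were searched as letters on both strands in the same windows, as descriptions only. GATAA, the core bound by the GATA factors that work with the ush protein, was at 5 peaks (P2, P3, P10, P13 and P16, 31.3%) against 39.7% of the list, and AGATAAG at 0 against 2.63%. GAGAG, the letters bound by the GAGA factor, was at 8 peaks (50%) against 22.6%. P15 held 19 overlapping GAGAG matches in a purine repeat, and 1 IDR peak of the whole list, P15 itself, had as many. TGACTCA, the AP-1 site through which Jun and Fos dimers act at the end of the JNK pathway, was at P1 only against 2.09%, and the CRE letters TGACGTCA were at 0 against 0.396%. The 8 peaks with GAGAG lay at several genes, and the difference from the list was not tested.

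Letters known from promoters of broadly active genes were found at P2 and P3. TATCGATA, bound by DREF, was at P3 against 5.83% of the list, where it began 42 bp left of the summit and is seen near the start of the printed sequence. GGTCACAC, bound by M1BP, was at P2 against 3.88%, next to RpLP1. The E-box CAGGTG was at P8 and P9 against 6.08%, and CAGCTG at P7 and P14 against 11.2%. TATAAA was at P2, P4, P7 and P10 (25%) against 29.6%. At 0 peaks were TAATTA (14.6% of the list), CAGGTAG (1.01%) and CACACACA (3.17%), which says only that these letters were not in these windows.

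The last 4 words, 6 letters long and picked in earlier work on these peaks, were counted in the same way. CGATAG, which overlaps TATCGATA at P3, was at 1 peak against 14.6% of the list. ACACTG was at P2 and P5 (12.5%) against 23.1%. ACTAGT was at P14 against 4.21%, and CTAGTA at P2 and P5 against 5.40%.

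The partners of both genes were looked up by lists of known roles, counted as bound with an IDR summit within 500 bp of a start site. Of 10 GATA factors and partners of ush (pnr, srp, grn, GATAd, GATAe, CtBP, Chi, ap, tup and lz), 0 were bound and 0 had an IDR summit in the body, against 15.8% and 7.90% of all protein-coding genes. Of 7 KLF and Sp family genes, 1 was bound (14.3%, against the same 15.8%), and that was cbt itself at 362, around which the stretch was chosen, while luna and dar1 had 1 IDR summit each in the body at 124 and 82.8. Klf15, btd, Sp1 and Spps had none.

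Of 14 genes of the JNK pathway and dorsal closure, 2 were bound (14.3%), close to the 15.8% of all protein-coding genes: puc, the phosphatase that restrains JNK, at 73.8, and aop, an ETS repressor also called Yan, at 73.9. An IDR summit in the body was found in 6 of the 14 (42.9%), against 7.90% of all protein-coding genes, without regard to gene length. These were kay (the fly Fos) with 169, puc with 4 summits and a highest of 163, msn (a kinase at the top of the pathway) with 3 and 139, dpp (a BMP ligand) with 133, raw with 109 and aop with 3 and 211. The genes bsk (JNK itself), hep, Jra (the fly Jun), slpr, tkv, zip, peb and zen had none. Of 8 sugar sensing and circadian genes tied to cbt, 3 were bound (37.5%), against 15.8% of all protein-coding genes: the sugar sensor Mondo at 83.8, its partner bigmax at 163, and the clock gene vri at 80.0. The clock genes cwo, vri and Pdp1 had summits in the body (3 of 8, against 7.90%), with highest signals of 74.3, 80.0 and 119, and sug, Clk and cyc had no IDR peak in either place. All of these signals were below the 362 of P9 at the cbt promoter. P9 lies in the window chosen by its peaks, so nothing is read from that comparison.

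In the dm3 build, whose lists the authors made separately, the densest 100 kb window of arm 2L held 15 of 3086 IDR peaks and 41 pooled peaks. Its strongest peak had a signal of 1293 at rank 3 and its second 362, close to the dm6 values of P10 and P9. Positions were not converted between builds.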

How the data were processed

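Peak lists of chromatin immunoprecipitation sequencing were read as deposited: 1 list per replicate, 1 called on the pooled replicates and 1 of IDR peaks, each in the dm6 and dm3 builds. Each deposited peak carries the authors' signal value, a score of unstated scale, and a q-value as −log10 q. The −log10 q reached a ceiling in each deposited list (3.70 in the IDR list, shared by 2533 peaks), so peaks were ranked by signal. The sources used here do not give the aligner, the peak caller or the IDR threshold. Without read counts in the lists, the depth of the replicates is unknown.

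Peaks were placed by their summits on the protein-coding genes of Ensembl release 115 (BDGP6 6.54), with sequence from RefSeq dm6, using Python 3.11.15, NumPy 2.4.6, SciPy 1.17.1 and Matplotlib 3.10.9. A peak was at a promoter within 500 bp of a TSS, a replicate shared a peak at 1 bp of overlap, and 21 motifs were searched within 100 bp of summits. Named are ush, cbt, every protein-coding gene of the window, the 5 other genes and 3 other windows with most IDR summits (ties by summed signal), and 4 gene lists. The members and lists were chosen with earlier results of these data known. No test was made, as there is 1 group. The counting was tested on simulated data. Alternatives changed the summit rule, distances, list, grid, overlap and replicates.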

Additional observations from a re-analysis of the deposited data

How the results depend on the processing

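Of 68 alternative values for 12 results, 50 stayed within 1.5 times the reported count or 1 SD of the reported rank. Leaving out a replicate meant, for counts, keeping IDR peaks among the strongest of both others. Except for shared support this was chosen after seeing the data, as were the 10 and 50 kb stretches. It gave 10 to 12 IDR peaks in the window (15 reported), 5 in ush without replicate 1, 2 or 3 (8 reported), 5 to 6 in introns (8 reported), 5 at promoters (6 reported), 0 in cbt, 10 to 12 with GGAA (14 reported) and 11 to 13 with shared support (11 reported). Requiring the strongest peaks of all 3 replicates was also chosen after seeing the data. It gave 10 in the window, 5 in ush, 5 in introns, 5 at promoters, 0 in cbt and 10 with GGAA. Leaving out a replicate kept a like requirement on the others, so the parts of the requirement and of the loss cannot be told apart. The mean rank of P10 was 2.5 to 3. The 1390 strongest IDR peaks gave 8 in the window and 5 in ush, and a −log10 q of at least 2 kept 18 of the 44 pooled peaks of the window. Shared support was 4 with the 1000 strongest peaks per replicate. The window ranked 4 with the grid shifted by 50 kb, 2 with 50 kb windows, 3 with 200 kb windows, 2 with the 1390 strongest IDR peaks, 39 by pooled peaks and 2 by the strongest peaks of replicate 2 alone. The densest 10 kb stretch held 6 IDR peaks. The causes were not tested. No paired analysis was possible because there is 1 group. Unknown depth and an unstated signal scale limit every comparison of strength to peaks of the same list.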
